A study of Mus musculus with 10 samples.

Results

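DEAD box and DEAH box helicase genes were taken as all nuclear protein-coding genes of the RefSeq GRCm38.p6 table whose symbol is Ddx or Dhx followed by a digit. This gave 53 genes of 21887, of which 37 carry a Ddx name and 16 a Dhx name. They were described in 3 deposited lists of RNA peaks from mouse embryonic stem cells. For each gene, the peaks of a list were counted where the peak's midpoint lay between the gene's first and last annotated base, called the span here.

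DEAD and DEAH box proteins use ATP to open RNA duplexes or to strip proteins from RNA, and both families are named for amino acids of their ATP-binding core. Members act at nearly every step in the life of an RNA, from splicing and ribosome assembly to export, translation and decay. The modification read out here, N6-methyladenosine (m6A), is written on messenger RNA by an enzyme whose catalytic subunit is METTL3, lies typically near stop codons and in long internal exons, and is bound in the nucleus by the reader protein YTHDC1. A further methyl mark, m6Am, sits on an adenosine at the capped start of many mRNAs, is written by another enzyme, and is recognised by common m6A antibodies.

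The series holds 10 samples, all from male embryonic stem cells derived from 129 mice and grown without feeder cells in serum with LIF, the cytokine that keeps such cells undifferentiated. One line, a Halo-Ythdc1 knockin, gave 1 library of RNA captured with the tagged YTHDC1 protein (RIP, RNA immunoprecipitation) and 1 input, both of total RNA, with neither nuclease digestion nor fragmentation before the pull-down. The m6A samples are polyA RNA, with 2 precipitates and 2 inputs labelled Mettl3-WT and 2 precipitates and 2 inputs labelled Mettl3-KO. Nothing in the sources used here tells how the Mettl3 knockout was made or whether it is 1 clone. The cell type label of every m6A sample, the knockout included, reads wild type, so genotype was taken from the title and the source name. The label of 1 knockout precipitate names the wild-type list and that of the other names the knockout list.

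The wild-type m6A list holds 12368 peaks, the knockout m6A list 6764 and the RIP list 30992, with median widths of 400, 250 and 203 bp. They give only the position of each peak, 1 list for each genotype and 1 for the RIP, with no score, depth, strand or replicate. No difference between the lists could therefore be tested against the spread between samples. Every count below describes these lists, and a peak absent from a list does not show that the mark or the binding was absent. A gene with little RNA can give no peak, and RNA level was not measured by the lists. Among the 5 pluripotency genes looked up, Sox2, Nanog and Esrrb had peaks in all 3 lists, Pou5f1 in the knockout and RIP lists and Lin28a in the RIP list. Peaks do not measure expression, so this is no check of the cell type.

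The sequences around 8 transcription starts are shown first, because many knockout m6A peaks in helicase genes lie over the first transcribed base. Each line gives 30 bases before the annotated start in lower case and the first 30 transcribed bases in capitals, read 5′ to 3′ on the gene's strand from the RefSeq GRCm38.p6 promoter table. Ddx46 and Dhx15 are splicing helicases with a peak in the knockout list alone. Ddx24, Ddx27, Ddx3x and the downstream start of Ddx5 lie under a peak of both m6A lists. Ddx3y and Dhx36 have the knockout peak at the start and their wild-type peaks near the other end of the gene.

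Ddx46, chr13:55634969-55635028, plus strand: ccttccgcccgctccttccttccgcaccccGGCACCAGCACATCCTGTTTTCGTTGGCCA
Dhx15, chr5:52190517-52190576, minus strand: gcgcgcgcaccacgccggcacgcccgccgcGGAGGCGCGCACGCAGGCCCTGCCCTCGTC
Ddx24, chr12:103425818-103425877, minus strand: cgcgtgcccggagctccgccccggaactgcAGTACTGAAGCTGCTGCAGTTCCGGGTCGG
Ddx27, chr2:167015283-167015342, plus strand: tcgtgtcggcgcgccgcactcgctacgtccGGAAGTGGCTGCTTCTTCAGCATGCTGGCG
Ddx3x, chrX:13280992-13281051, plus strand: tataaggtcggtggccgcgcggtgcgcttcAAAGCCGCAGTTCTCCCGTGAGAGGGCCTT
Ddx5, chr11:106788465-106788524, minus strand: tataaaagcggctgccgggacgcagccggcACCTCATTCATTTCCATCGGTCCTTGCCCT
Ddx3y, chrY:1286584-1286643, minus strand: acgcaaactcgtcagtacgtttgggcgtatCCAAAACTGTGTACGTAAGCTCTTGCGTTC
Dhx36, chr3:62506959-62507018, minus strand: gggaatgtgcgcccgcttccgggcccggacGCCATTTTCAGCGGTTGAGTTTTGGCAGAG

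The 47 helicase genes found in the promoter table have 58 annotated starts, and the first transcribed base of 15 of these, in 14 genes, lay inside a knockout m6A peak (25.9%). Over the 21263 annotated starts of all protein-coding genes that share was 8.15%. The wild-type list covered 4 of the 58 starts (6.9%, against 2.14% of all annotated starts), those of Ddx24, Ddx27, Ddx3x and the downstream start of Ddx5 shown above. The first transcribed base was A at 6 of the 15 covered helicase starts (40.0%), G at 8 and C at 1. Of all covered protein-coding starts 33.0% began with A, and of all annotated starts 37.4%. Thus Ddx24, Ddx3x and Ddx5 begin with A in the lines above, while Ddx46, Dhx15, Ddx27 and Dhx36 begin with G and Ddx3y with C.

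The 4 letters GGAC, the core of the common m6A sequence context, were searched in the first 50 transcribed bases. They occurred at 1 of the 15 covered helicase starts (6.67%) and at 11 of all 58 (19.0%). The shares over all protein-coding genes were 21.1% of covered starts and 20.0% of all starts. On the other strand, read as GTCC, the shares were 13.3% of the covered helicase starts and 18.8% of all protein-coding starts. The annotated start is a model position, so the first base of the RNA in these cells may differ.

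Most helicase genes carried a wild-type m6A peak and most carried a RIP peak, while 26 of 53 carried a knockout m6A peak. A wild-type m6A peak lay in 41 of 53 (77.4%), against 30.3% of all protein-coding genes. A knockout m6A peak lay in 26 of 53 (49.1%), against 18.2%, and a RIP peak in 41 of 53 (77.4%), against 42.2%. Peaks in all 3 lists were found in 17 (32.1%, against 9.25%). These shares were above those of protein-coding genes as a whole. Helicase genes had a median span of 22833 bp and protein-coding genes one of 17169 bp. Per Mb of summed span, helicase genes held 40.4 wild-type, 39.1 knockout and 72.7 RIP peaks, against 11.4, 6.27 and 21.3. RNA levels, not measured here, may also differ, and whether span or RNA level bears on these shares was not tested.

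Counted by gene, the genotype balance leaned to the wild-type list, as it did over all protein-coding genes. A wild-type peak without a knockout peak was found in 20 helicase genes (37.7%), where 18.8% of all protein-coding genes had one. A knockout peak without a wild-type peak was found in 5 (9.43%, against 6.66%). Both lists had peaks in 21 (39.6%, against 11.5%), and neither in 7 (13.2%, against 63.0%). Of the 25 helicase genes in 1 m6A list alone, 80.0% were in the wild-type list, and of the 5566 such protein-coding genes 73.8% were. A total of 4 helicase genes had no peak in any list (7.55%, against 48.3%). When such genes were left out, 49 helicase genes and 11318 protein-coding genes remained. The share in the knockout list alone was then lower in helicase genes, 10.2% against 12.9%. The share in the wild-type list alone was 40.8% against 36.3%, and in both lists 42.9% against 22.3%. The genotype balance depended on peak width. With only peaks wider than their list's median, 5 helicase genes were in both m6A lists, 19 in the wild-type list alone and 13 in the knockout list alone. With only m6A peaks wider than 250 bp, a limit chosen after seeing the data, the numbers were 10, 24 and 8. The wild-type list alone held more genes than the knockout list alone in each case. In peak numbers the lists were even, with 65 wild-type and 63 knockout peaks in helicase genes, although the wild-type list is the longer by far. Over all protein-coding genes the numbers were 11996 and 6589. Dhx38 alone held 10 of the 63 knockout peaks.

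**Figure D1:**
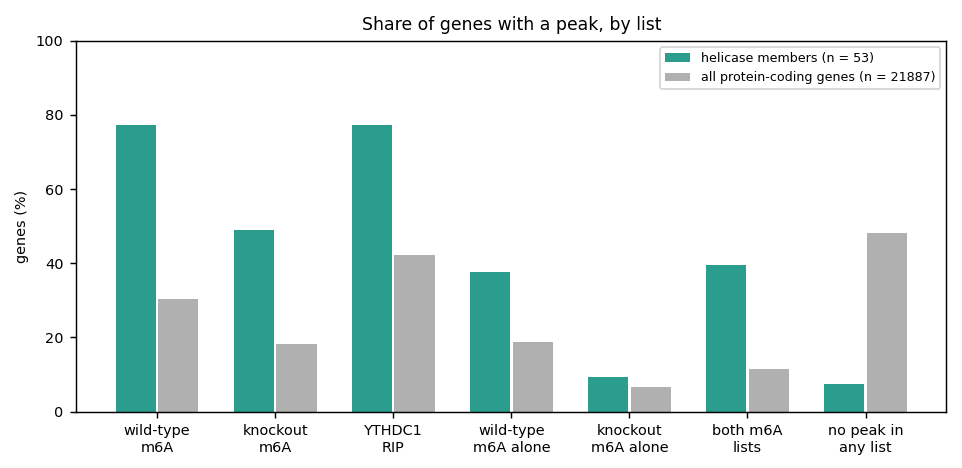
Share of genes (%, vertical axis) with a peak in each list or combination of lists, for the 53 helicase genes and all 21887 protein-coding genes; the bars are counts from pooled lists and carry no error. The helicase bars stand above the others in every class but the last, where 7.55% of helicase genes and 48.3% of protein-coding genes had no peak. With those genes left out, the share in the knockout list alone was 10.2% for helicase genes and 12.9% for protein-coding genes.

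The Ddx and Dhx branches, which differ in the sequence of the helicase core, were much alike in the wild-type list, with 28 of 37 Ddx genes (75.7%) and 13 of 16 Dhx genes (81.2%). A knockout peak lay in 16 Ddx genes (43.2%) and 10 Dhx genes (62.5%). A RIP peak lay in 30 Ddx genes (81.1%) and 11 Dhx genes (68.8%). Between branches of this size these differences rest on a few genes each.

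**Figure D2:**
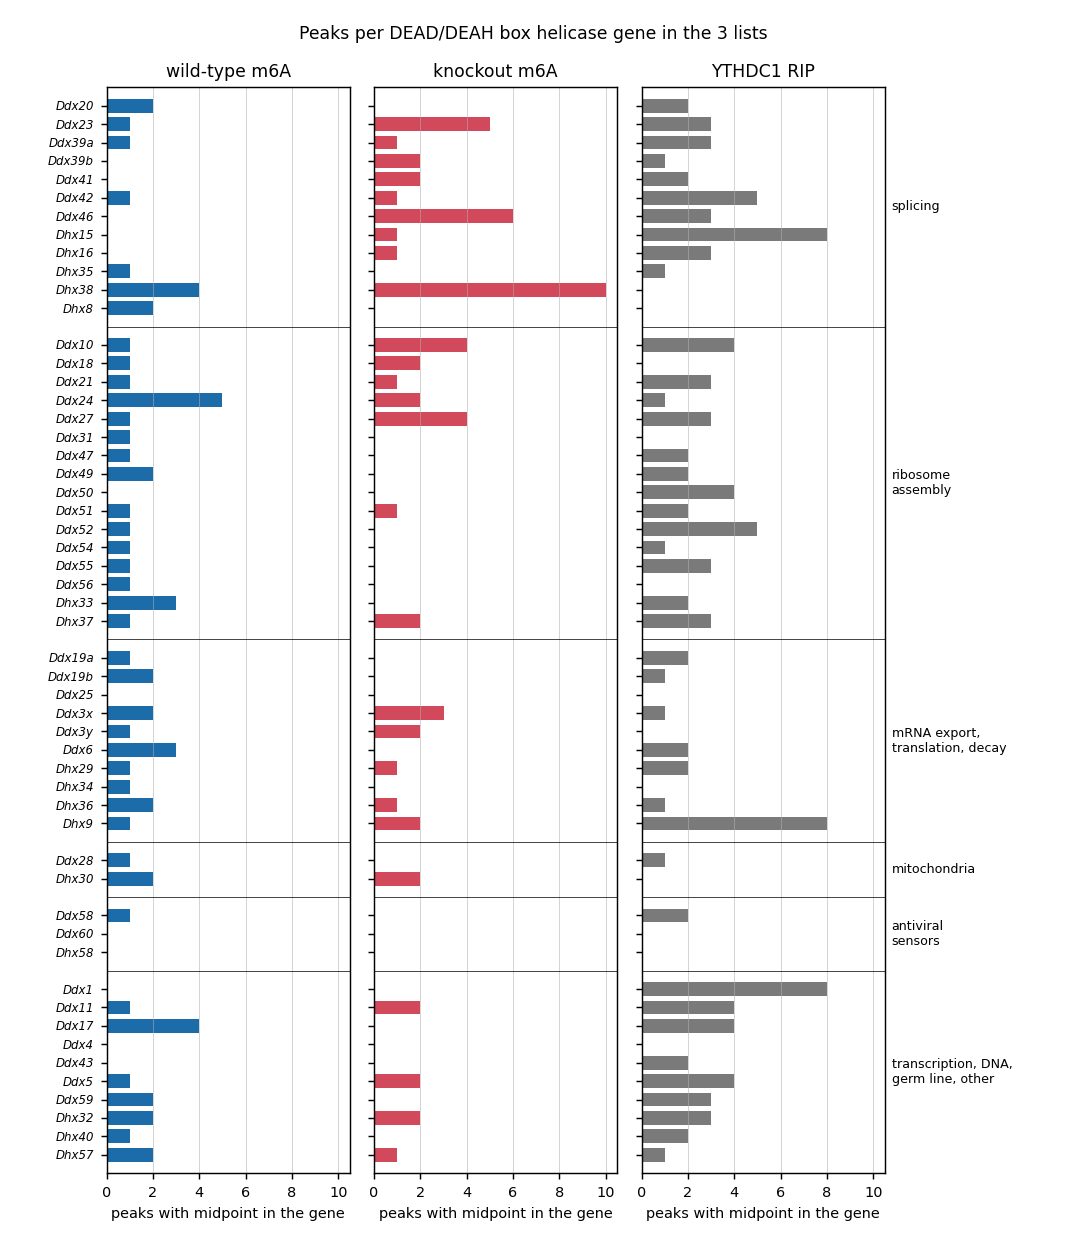
Number of peaks (horizontal axis) in each of the 53 helicase genes, grouped by known role, in the wild-type m6A, knockout m6A and YTHDC1 RIP lists. Dhx38 stands out in the knockout list with 10 peaks, Ddx24 in the wild-type list with 5, and Ddx1, Dhx15 and Dhx9 in the RIP list with 8 each.

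The splicing helicases were the group with the most knockout peaks. These 12 genes encode proteins that remodel the spliceosome, join it or help to assemble its small ribonucleoproteins. They held 29 of the 63 knockout peaks in helicase genes (46.0%), 12 wild-type peaks and 31 RIP peaks. Most of the 29 knockout peaks came from 3 genes, Dhx38 with 10, Ddx46 with 6 and Ddx23 with 5. A knockout peak lay in 9 of the 12, against 18.2% of all protein-coding genes. A wild-type peak lay in 7 (58.3%, against 30.3%). All 5 helicase genes with a peak in the knockout list alone were in this group (41.7% of its 12, against 6.66% of all protein-coding genes). Another 3 splicing helicases were in the wild-type list alone, where 18.8% of all protein-coding genes were, and 4 in both (33.3%, against 11.5%). With the limit of 250 bp on m6A peak width, 4 of the 8 helicase genes with a knockout peak alone were in this group. With only peaks wider than their list's median, 5 of the 13 were. The others were 4 ribosome assembly helicases, 3 of mRNA export, translation and decay, and 1 of the transcription, DNA, germ line and other group.

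Dhx38, which drives a late remodelling step between the chemical steps of splicing, had 10 knockout peaks, 4 wild-type peaks and no RIP peak. In all, 2 of the 21887 protein-coding genes had more knockout peaks. Its span is chr8:109547999-109565861, and 9 of the knockout peaks lay between 109556951 and 109562650. They were 109556951-109557100, 109558101-109558400, 109558901-109559000, 109559051-109559150, 109559451-109559750, 109560001-109560350, 109561201-109561500, 109561851-109562150 and 109562401-109562650. The last knockout peak stood apart at 109565401-109565650. The wild-type peaks were at 109548001-109548350, 109561351-109561450, 109561901-109562050 and 109562401-109562850, and the latter 3 each overlapped a knockout peak. These 9 knockout peaks were thus spread, with gaps, over a stretch of the gene whose high-coordinate part also held 3 wild-type peaks. The strand of Dhx38 is not in the promoter table, so which end is the start was not read.

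Ddx46 acts early, when the branch site of the intron is recognised. It had 6 knockout peaks, 3 RIP peaks and no wild-type peak, and 23 protein-coding genes had more knockout peaks. They began at its annotated start on chromosome 13, with chr13:55634951-55635150, whose midpoint lay 51 bp downstream of the start. The others were chr13:55639851-55640000, chr13:55645301-55645550, chr13:55647551-55647850, chr13:55650351-55650650 and chr13:55651951-55652150. The last of these lay at 36.9% of the span, so no knockout peak lay in the far part of this gene. One of them, at chr13:55639851-55640000, overlapped a RIP peak.

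Ddx23, which helps the spliceosome to become active, had 5 knockout peaks, 1 wild-type peak and 3 RIP peaks. Its knockout peaks were chr15:98651151-98651650, chr15:98651851-98652050, chr15:98656551-98656800, chr15:98658151-98658500 and chr15:98662751-98662850. The latter 2 overlapped RIP peaks. The wild-type peak, chr15:98645351-98645750, lay across the low-coordinate end of the span and overlapped no knockout peak. Genes with 5 or more knockout peaks made up 0.498% of protein-coding genes (109 in all), and Dhx38, Ddx46 and Ddx23 were the 3 helicase genes among them (5.66% of 53).

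The other splicing helicases of the knockout list alone had few peaks. Dhx15, which takes spliceosomes apart and also serves in ribosome assembly, had 1 knockout peak, chr5:52190201-52190550, over its start, with a RIP peak inside it at chr5:52190252-52190478. Ddx39b, which helps to recruit the branch-site particle and to export mRNA, had chr17:35241751-35241950 and chr17:35243051-35243250, 104 and 1404 bp downstream of its start. The second overlapped the gene's RIP peak. Ddx41, a spliceosome-associated protein, had chr13:55535851-55536150 and chr13:55536201-55536600, within 657 bp of its start, and both midpoints also lay in a long non-coding RNA gene. Without strand in the lists, RNA of the 2 genes cannot be told apart there. Dhx16, needed for the first chemical step of splicing, was the exception in position, with chr17:35887901-35888250 at 64.4% of its span.

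Of the remaining splicing helicases, Ddx42 had a knockout peak at its start, overlapping a RIP peak, and a 650 bp wild-type peak at 95.9% of the span. Ddx39a, the close relative of Ddx39b, had 1 peak in each m6A list and 3 in the RIP list. Ddx20, part of the complex that assembles small nuclear ribonucleoproteins, had 2 wild-type peaks of 300 and 700 bp, chr3:105678351-105678650 and chr3:105678801-105679500, and no knockout peak. Dhx8, which releases spliced mRNA, had wild-type peaks chr11:101738251-101738550 and chr11:101766651-101767350, the second at 99.0% of the span, and neither a knockout nor a RIP peak. Dhx35 had a single wild-type peak at 99.3% of the span and 1 RIP peak.

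Ribosome assembly helicases, which work mostly in the nucleolus on pre-ribosomal RNA, were nearly all in the wild-type list. A wild-type peak lay in 15 of 16 (93.8%, against 30.3% of all protein-coding genes) and a knockout peak in 7 (43.8%, against 18.2%). Thus 8 were in the wild-type list alone and 7 in both, where 18.8% and 11.5% of all protein-coding genes were. None was in the knockout list alone, a class of only 6.66% of all protein-coding genes. With only peaks wider than their list's median 4 were, and with the limit of 250 bp 3 were. The 16 genes held 22 wild-type, 16 knockout and 35 RIP peaks.

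Ddx24 had 5 wild-type peaks, the most of any helicase gene, and 108 protein-coding genes had more. They lay between 0.3% and 46.0% of the span from the start. By increasing distance they were chr12:103425701-103425900, chr12:103424401-103424650, chr12:103423801-103424150, chr12:103419001-103419550 and chr12:103417501-103417750. The first of these had the same bounds in the knockout list, and so did the second, chr12:103424401-103424650. That peak was the only wild-type peak in a helicase gene to overlap both a knockout and a RIP peak, the RIP peak being chr12:103424349-103424633. The 3 wild-type peaks farther from the start had no counterpart in the knockout list.

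Ddx27 and Ddx10 each had 4 knockout peaks and 1 wild-type peak. In Ddx27 the wild-type peak, chr2:167015251-167015450, lay within the first knockout peak, chr2:167015251-167015500, over the start shown above. The other knockout peaks, chr2:167017651-167017950, chr2:167031501-167031750 and chr2:167033501-167033900, lay at 12.7%, 83.1% and 93.7% of the span. In Ddx10 the wild-type peak, chr9:53204251-53204500, overlapped the knockout peak chr9:53204351-53204600 deep in the gene, 43.6 kb from the start. Its other knockout peaks were chr9:53247901-53248150 at the start, chr9:53157101-53157400 and chr9:53149451-53149600. Both genes thus had knockout peaks far from the start as well as at it.

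Dhx33 showed the other arrangement, with 3 wild-type peaks at the far end, no knockout peak and 2 RIP peaks. The wild-type peaks were chr11:70984251-70984800, chr11:70984901-70985150 and chr11:70986601-70987500, at 97.9%, 95.4% and 85.5% of the span. Ddx49 likewise had 2 wild-type peaks at the far end, chr8:70293201-70293500 and chr8:70293701-70293800, but both midpoints also lay in Homer3. Ddx52 had 1 wild-type peak of 750 bp at 98.0% of the span and 5 RIP peaks, at 11.7%, 32.3%, 51.4%, 85.7% and 95.1% of the span, none of which overlapped it. The RIP peaks were chr11:83944443-83944642, chr11:83948825-83948931, chr11:83952828-83952919, chr11:83959994-83960193 and chr11:83961908-83962226. In Ddx52, then, RIP peaks ran along the gene up to the m6A peak at its end. That m6A peak, chr11:83962301-83963050, began just beyond the last RIP peak.

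Ddx18, Dhx37 and Ddx51, which act in the making of the ribosomal subunits, also had peaks in both lists. Each had a knockout peak over the start and a wild-type peak elsewhere, at 98.8% of the span in Ddx18, 93.9% in Dhx37 and 46.1% in Ddx51. In Ddx21 the knockout peak lay at 16.4% and the wild-type peak at 90.2%. A single wild-type peak at 87.1% of the span or farther on, and no knockout peak, was found in each of Ddx31, Ddx47, Ddx54, Ddx55 and Ddx56. Ddx50, a close relative of Ddx21 and its neighbour on chromosome 10, was the only ribosome assembly helicase without an m6A peak. It had 4 RIP peaks, one of which, chr10:62636935-62638022, was 1088 bp wide, the widest RIP peak in a helicase gene.

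Helicases of mRNA export, translation and decay resembled the ribosome assembly group in the m6A lists. Of 10 genes, 9 had a wild-type peak and 5 a knockout peak, where 30.3% and 18.2% of all protein-coding genes had one. In the wild-type list alone were 4, in both 5 and in the knockout list alone none. The shares of all protein-coding genes were 18.8%, 11.5% and 6.66%. With only peaks wider than their list's median, 3 were in the knockout list alone. The 10 genes held 14 wild-type, 9 knockout and 17 RIP peaks.

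Ddx3x and Ddx3y, the X-linked and Y-linked copies of a translation helicase, shared a layout in the m6A lists. In Ddx3x the knockout peak chrX:13280951-13281250 lay over the start, followed by chrX:13284101-13284300 and chrX:13284851-13285050. In Ddx3y the knockout peak chrY:1286401-1286650 lay over the start, followed by chrY:1284251-1284450. The wild-type peak nearest the far end lay at 81.9% of the span in Ddx3x and 90.1% in Ddx3y. Ddx3x also had a 100 bp wild-type peak inside the knockout peak at its start, and Ddx3y did not. A RIP peak lay in Ddx3x and none in Ddx3y. The 2 genes are relatives, as are Ddx19a and Ddx19b, Ddx39a and Ddx39b, Ddx5 and Ddx17, and Ddx21 and Ddx50. How reads that fit both members of a pair were placed is not given in the sources used here. For any such reads, the split between partners is therefore uncertain, and how many there were was not tested.

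Ddx6, which represses translation and promotes decay of mRNA, had 3 wild-type peaks, no knockout peak and 2 RIP peaks. The wild-type peaks were chr9:44604901-44605050, chr9:44606951-44607500 and chr9:44636501-44637450, the last of them 950 bp wide. Its strand is not in the promoter table. Ddx19b, which removes proteins from mRNA at the nuclear pore, had wild-type peaks of 700 and 250 bp, chr8:111007701-111008400 and chr8:111008551-111008800, and Ddx19a had 1 at 95.8% of the span. Neither had a knockout peak. Dhx34, which acts in nonsense-mediated decay, had a single wild-type peak of 950 bp, chr7:16218051-16219000, at 14.3% of the span, and no peak in the other lists. This wide wild-type peak was thus on the start side of its gene.

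Dhx9, a helicase of double-stranded RNA and of RNA paired with DNA, was the member with peaks of both genotypes at the far end. Its wild-type peak, chr1:153456201-153456600, lay inside the 700 bp knockout peak chr1:153456151-153456850, the widest knockout peak in a helicase gene, at 97.7% of the span. A further knockout peak lay at chr1:153457451-153457700. The 8 RIP peaks of Dhx9 lay elsewhere, 1.0 to 22.5 kb from the start, and none overlapped an m6A peak. By increasing distance they were chr1:153486531-153486790, chr1:153483719-153483975, chr1:153481998-153482170, chr1:153480471-153480615, chr1:153480012-153480144, chr1:153479374-153479469, chr1:153469610-153469923 and chr1:153465057-153465256. Dhx36, which unwinds G-quadruplexes, had the knockout peak at its start and wild-type peaks at 93.2% and 91.5% of the span. Dhx29, a scanning factor of translation initiation, had a 200 bp peak in each m6A list, at 0.2% of the span in the knockout and 46.6% in the wild type.

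Both mitochondrial helicases had wild-type peaks. Ddx28, which acts in assembly of the mitochondrial ribosome, had the widest wild-type peak of any helicase gene, 1450 bp at chr8:106009701-106011150, in a gene whose whole span is 1871 bp. A RIP peak overlapped its far end at chr8:106009696-106009901, and there was no knockout peak. Dhx30, also needed for mitochondrial ribosomes, had 2 wild-type peaks at 90.2% and 88.7% of the span and 2 knockout peaks at 25.6% and 13.9%.

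Of the 3 antiviral sensors 1 had peaks, which is 33.3% for wild-type peaks and for RIP peaks alike, where protein-coding genes had 30.3% and 42.2%. Ddx58, which encodes the RIG-I sensor of viral RNA, was that gene, with 1 wild-type peak at 94.2% of the span and 2 RIP peaks. Dhx58, its regulator, and Ddx60 had no peak in any list. The germ line genes Ddx4 and Ddx25 had none either, and Ddx43, also known from germ cells, had 2 RIP peaks and no m6A peak. These 5 genes without an m6A peak, together with Ddx1 and Ddx50, make up the 7 helicase genes in neither m6A list.

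Ddx1, which has roles in DNA repair and in joining of tRNA exons, had 8 RIP peaks and no m6A peak. The RIP peaks lay from 3.4 to 28.3 kb downstream of the start, along nearly the whole gene. They were chr12:13245676-13245875, chr12:13244967-13245247, chr12:13243862-13244109, chr12:13239494-13239710, chr12:13230305-13230507, chr12:13227345-13227576, chr12:13223533-13223733 and chr12:13220752-13220951. Widths ran from 200 to 281 bp.

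Ddx5 and Ddx17, paired co-regulators of transcription and splicing, differed in the m6A lists. Ddx17 had 4 wild-type peaks and no knockout peak, while Ddx5 had 1 wild-type peak and 2 knockout peaks. Those of Ddx17 were chr15:79529951-79530200, chr15:79530351-79530600, chr15:79531601-79531850 and chr15:79533151-79533950, between 69.3% and 87.5% of the span. In Ddx5 the wild-type peak, chr11:106788301-106788550, lay within the knockout peak chr11:106788251-106788550 at the downstream start shown above, and the second knockout peak, chr11:106789051-106789250, lay over the upstream start. Each gene had 4 RIP peaks, none of which overlapped an m6A peak. In the wild-type list, then, the Ddx5 peak lay at a start and the Ddx17 peaks lay toward the far end of the span. Ddx17 also has a downstream annotated start, at chr15:79532917. Its wild-type peaks lay -0.63, 1.19, 2.44 and 2.84 kb from that start, where a negative value is upstream. The contrast therefore depends on which start is used.

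In the same group Dhx32 had 2 wild-type peaks, each overlapping a knockout peak, and 1 of these pairs had the same bounds in both lists, chr7:133776551-133776800, beside an annotated start. Ddx59 had wild-type peaks chr1:136416801-136417450 and chr1:136419351-136419600, at 4.5% and 10.3% of the span, and no knockout peak. Dhx57 had 2 wild-type peaks and 1 knockout peak, the latter overlapping a RIP peak. Dhx40 had 1 wild-type peak at 97.0% of the span. Ddx11, a DNA helicase of sister chromatid cohesion, had 1 wild-type, 2 knockout and 4 RIP peaks.

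Position along the gene was read for genes whose strand the promoter table gives, 47 helicase genes and 17492 protein-coding genes. The median wild-type peak of a helicase gene lay at 87.5% of the span from the start and the median knockout peak at 11.7%. Over all protein-coding genes the medians were 86.1% and 17.6%. The last 25% of the span held 35 of 55 wild-type peaks (63.6%, exact Clopper-Pearson 95% interval 49.6 to 76.2%) and 4 of 45 knockout peaks (8.89%, 2.48 to 21.2%). The first 25% held 30 of the 45 knockout peaks (66.7%, 51.0 to 80.0%). Over all protein-coding genes the matching shares were 62.4%, 20.1% and 54.6%, each inside the helicase interval. These intervals cover counting error only, since peaks of 1 gene are not independent. Spans include introns, and exons were not used here, so a position in the span is not a position in the mature mRNA.

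**Figure D3:**
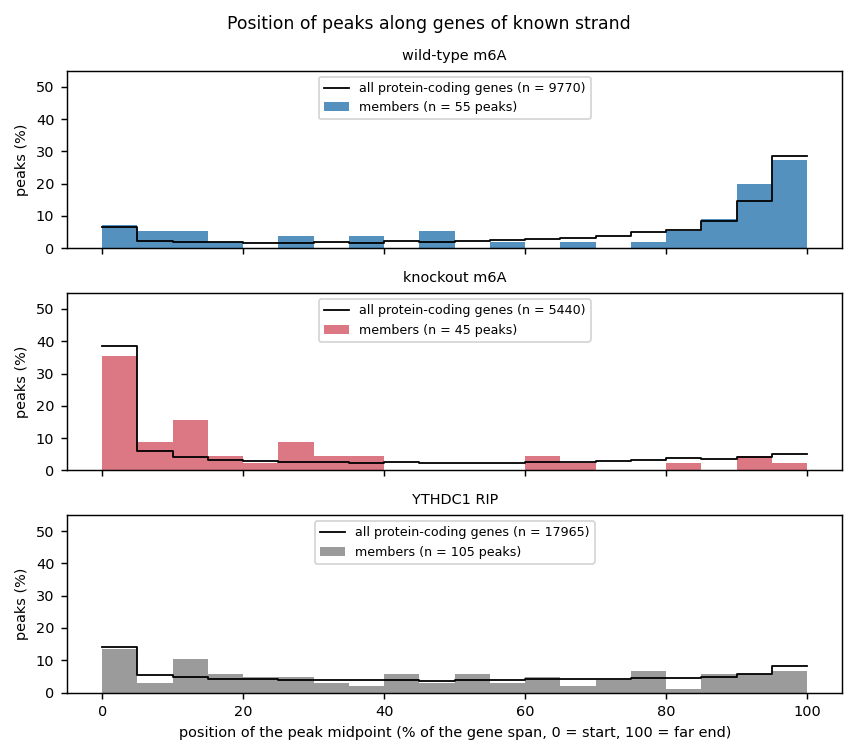
Position of peak midpoints as a percentage of the gene span from its start (horizontal axis) against the share of peaks (%, vertical axis), with helicase peaks as bars and all protein-coding genes of known strand as a black line, in bins of equal width. Wild-type peaks gather at the far end, knockout peaks at the start, and RIP peaks spread along the span, in helicase genes and in protein-coding genes alike.

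Counted by gene, 26 of the 47 helicase genes of known strand (55.3%) had a wild-type peak in the last 25% of the span, against 24.0% of protein-coding genes of known strand. A knockout peak within 200 bp of an annotated start was found in 16 of 47 (34.0%), against 11.6%. A wild-type peak there was found in 5 (10.6%, against 2.48%) and a RIP peak in 10 (21.3%, against 7.26%). Since more helicase genes had peaks at all, the share among genes with a peak in the list is the closer comparison. A start peak was present in 16 of the 22 helicase genes with a knockout peak (72.7%) and in 61.6% of such protein-coding genes. For the wild-type list and the last 25%, the values were 26 of 36 (72.2%) and 77.7%. Among genes with a peak in the list, a wild-type start peak was present in 13.9% of helicase genes against 8.02%, and a RIP start peak in 27.0% against 17.0%. A knockout peak in the last 25% was present in 9.09% against 22.6%, which is 2 of 22 helicase genes. By peak, 37.8% of helicase knockout peaks and 37.6% of all knockout peaks lay near a start.

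The same contrast was seen inside single genes. Among the 17 helicase genes of known strand with peaks in both m6A lists, the median knockout peak was nearer the start than the median wild-type peak in 15 (88.2%). The share was 80.4% of 2108 protein-coding genes. The 2 exceptions were Ddx10 and Ddx27, both with 4 knockout peaks. Any difference counted, however small. Ddx5, Dhx9 and Dhx32 are among the 15, although every wild-type peak in them overlapped a knockout peak.

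**Figure D4:**
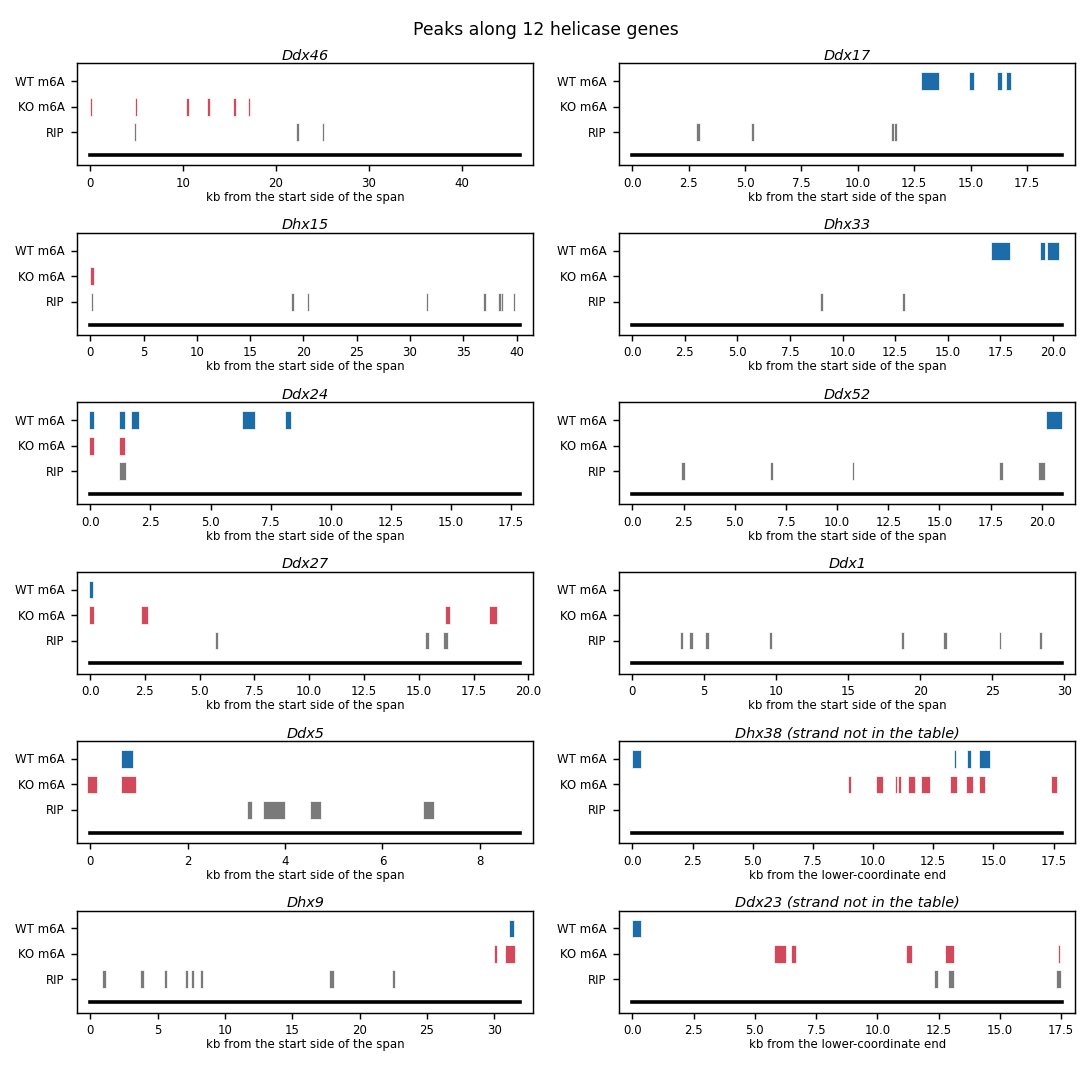
Peaks of the 3 lists along 12 helicase genes, with distance along the span in kb on the horizontal axis, 1 line of boxes per list (wild-type m6A, knockout m6A, RIP) and the gene as a black bar; 10 genes are drawn from the start side and Dhx38 and Ddx23, of unread strand, from the low-coordinate end. The 6 knockout peaks of Ddx46 begin at its start, the 3 wild-type peaks of Dhx33 sit at the far end, and the 8 RIP peaks of Ddx1 run along the gene.

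Peaks of the 2 genotypes seldom coincided. Of 65 wild-type peaks in helicase genes, 12 shared 1 bp or more with a knockout peak (18.5%), against 11.7% of wild-type peaks in all protein-coding genes. They lay in Ddx10, Ddx24, Ddx27, Ddx3x, Ddx5, Dhx32, Dhx38 and Dhx9. Of the 63 knockout peaks, 12 overlapped a wild-type peak (19.0%), against 21.5%. Of the 21 helicase genes in both m6A lists, 13 had no wild-type peak that touched a knockout peak (61.9%, against 55.4% of the 2523 protein-coding genes in both lists).

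RIP peaks met knockout m6A peaks more often than wild-type ones in helicase genes. Of 63 knockout peaks, 16 overlapped a RIP peak (25.4%, 15.3 to 37.9%), and of 65 wild-type peaks 5 did (7.69%, 2.54 to 17.0%). Over all protein-coding genes the shares were 21.9% and 13.4%, both inside those intervals, and the intervals themselves overlap. The wild-type peaks that overlapped a RIP peak were in Ddx24, Ddx28, Ddx47, Ddx51 and Ddx55. The median RIP peak lay at 43.2% of the span, against 47.4% over all protein-coding genes, and 10 of 105 lay near a start (9.52%, against 7.13%).

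A few helicase genes led each list. With 3 or more wild-type peaks there were Ddx24, Ddx17, Dhx38, Ddx6 and Dhx33 (9.43% of 53), against 6.02% of protein-coding genes. With 8 or more RIP peaks there were Ddx1, Dhx15 and Dhx9 (5.66%), against 1.06%, and 137 protein-coding genes had more than 8. Next in the RIP list were Ddx52 and Ddx42 with 5 each. In Dhx15 the RIP peaks beyond the one at the start were chr5:52171434-52171708, chr5:52170023-52170239, chr5:52158855-52159054, chr5:52153515-52153572, chr5:52152063-52152258, chr5:52151858-52152057 and chr5:52150658-52150901, so 4 of the 8 lay beyond 91.7% of the span or at it. In Ddx42, 1 RIP peak lay at the start, chr11:106216947-106217186, and the others were chr11:106223954-106224165, chr11:106230144-106230343, chr11:106238048-106238247 and chr11:106240228-106240458.

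RIP and m6A lists did not always name the same genes. A total of 8 helicase genes had an m6A peak and no RIP peak (15.1%, against 9.48% of protein-coding genes): Ddx18, Ddx31, Ddx3y, Ddx56, Dhx30, Dhx34, Dhx38 and Dhx8. Ddx1, Ddx43 and Ddx50 had RIP peaks and no m6A peak (5.66%, against 14.8%). With 1 pull-down and 1 input there was no replicate of the RIP.

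Of 245 helicase peaks, 13 in 9 genes had a midpoint that also lay in another annotated gene. The m6A peaks concerned were those of Ddx49, Ddx39a, Dhx40 and Dhx57 in the wild-type list and of Ddx41 and Ddx5 in the knockout list. The lists carry no strand, so the source RNA of these peaks cannot be told apart.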

How the data were processed

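The authors deposited 3 peak lists with chromosome, start and end, so the unit is position in bp (other: no score, count or signal). The genome was mm10, per the submitters' processing notes, which name MACS2 2.1.2, HISAT2 2.2.0, STAR 2.7, SAMtools 1.9, Trim Galore 0.6.4 and bcl2fastq without their roles. The peak threshold and any pooling of replicates were not stated. Depth is unknown.

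Genes, starts and sequences came from RefSeq tables of GRCm38.p6, which shares its chromosome coordinates with mm10. A midpoint in several spans counted for each gene. Strand and starts came from the promoter table and were used after the lists were seen. Clopper-Pearson intervals (95%) cover counting error only. No test between lists was made. The counting was tested on simulated data. Python 3.11.15, pandas 2.3.3, NumPy 2.4.6, SciPy 1.17.1 and matplotlib 3.10.9 were used.

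The members, roles and lists were chosen with earlier results of these data known. Every member may be named. Positions are given for the 5 with most peaks in each list, all with a knockout peak alone, the 10 with most peaks among those with a wild-type peak alone, and wild-type peaks overlapping both other lists, with ties broken by width. Of other helicases, Eif4a1, Eif4a2, Eif4a3, Upf1 and Ythdc2 are named.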

Additional observations from a re-analysis of the deposited data

How the results depend on the processing

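The counts of helicase genes per list and combination kept within 1.5 times their values when any overlap of 1 bp counted, when each peak went to 1 gene, and when peaks lying in another gene too were left out. In each of these settings 5 splicing helicases had a peak in the knockout list alone. Width mattered more. With only peaks wider than their list's median, 24 members had a wild-type peak, 13 a knockout peak alone, 5 had both, 16 no m6A peak and 9 no peak at all. With only m6A peaks wider than 250 bp, a limit chosen after seeing the data, 8 had a knockout peak alone, 10 had both and 11 had neither. Splicing helicases were 5 of those 13 and 4 of those 8. Requiring overlap of 50% of the wild-type peak left 1.54% of wild-type peaks overlapping a RIP peak, against 7.69%, and allowing a RIP peak within 1 kb gave 15.4%. Within 100, 200 and 500 bp of a span end lay 3.08%, 7.69% and 20.0% of wild-type peaks. Within 100 bp lay 7.94% of knockout peaks (25.4% within 200 bp) and 0.855% of RIP peaks (7.69%), and within 100 bp of a start lay 1.9% of RIP peaks (9.52% within 200 bp) and 24.4% of knockout peaks (37.8%). Among genes with a peak in any list, a wild-type peak lay in 83.7% of 49 members and 58.6% of 11318 protein-coding genes, a knockout peak in 53.1% and 35.2%, and a RIP peak in 83.7% and 81.7%, a share that this choice of genes pushes up. The limit on proteins holding the helicase core motif was not run, because no protein table was used here. No paired analysis was possible because the lists carry no values per replicate. The absence of scores and depth limits every comparison between lists.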

Other observations

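RNA helicases outside the Ddx and Dhx names were counted in the same way, from 25 names of which 24 matched. Of these 24 genes, 11 had a wild-type m6A peak (45.8%), 7 a knockout peak (29.2%) and 18 a RIP peak. The shares of the 53 Ddx and Dhx genes were 77.4%, 49.1% and 77.4%, and those of all protein-coding genes 30.3%, 18.2% and 42.2%. By share of genes with a RIP peak the 2 sets of helicases were thus close, with 18 of 24 and 41 of 53. Their median spans were 54761 bp for the 24 genes and 22833 bp for the 53. Per Mb of summed span they held 41.1 and 72.7 RIP peaks. Differences between the sets were not tested. The 3 genes of the DEAD box translation factor eIF4A, which do not carry a Ddx name, had no m6A peak: Eif4a1 had 2 RIP peaks, Eif4a2 had 7 and Eif4a3, a core protein of the exon junction complex, had 1. Upf1, the helicase of nonsense-mediated decay, had 3 wild-type peaks, no knockout peak and 1 RIP peak. Ythdc2, a helicase that itself carries an m6A-binding domain, had no peak in any list. Among these 24 genes a knockout peak without a wild-type peak was found in 3 (12.5%, against 6.66% of all protein-coding genes). These were Mov10, Skiv2l and Snrnp200, named here after their values were seen.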
